A study of Mus musculus with 9 samples.

Results

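Neuronal and synaptic genes are a set of 43 genes whose products build the axon, the dendrite and the synapse, listed by gene symbol. They cover calcium-binding proteins, the neuronal cytoskeleton, RNA-binding proteins, the vesicle release machinery, neuropeptides and granule proteins, GABA synthesis, proneural factors, glutamate receptors and 1 atypical cadherin. Of the 43 genes, 42 had at least 1 named probe among 97 probes on the array, Grin1 had none, and 21 were measured well enough to be tested, out of 10757 genes tested in all. Their RNA was measured in mNS-5 cells, a clonal, adherent neural stem cell (NSC) line derived from mouse embryonic stem cells.

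The 6 MED12 KD arrays came from mNS-5 cells infected with lentivirus carrying shRNA against Med12, and the 3 NS control arrays from cells infected with a non-silencing shRNA. Both groups grew on gelatin in RHB-A medium with FGF-2 and EGF at 10 ng/ml each, were selected in puromycin at 600 ng/ml, and were harvested 5.5 days after infection. These are conditions of self-renewal, not of neuronal differentiation. By their labels the arrays form 3 sets, and every set holds 2 MED12 KD arrays and 1 NS control array. The second MED12 KD array of a set is written here as 1_2, 2_2 or 3_2. The study's methods name 1 Med12 shRNA and 3 biological replicates per condition and do not say what the second MED12 KD array of a set is, so p-values measure the spread between arrays, which may be technical. The groups therefore rest on 1 cell clone and 1 hairpin.

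Neurons pass signals at synapses, where calcium entering the terminal makes vesicles fuse with the membrane through the SNARE proteins, which complexins and synaptotagmins regulate. Neural stem cells divide without forming synapses, and many neuronal genes are held silent in them by the repressor REST, which binds a DNA element called RE1. Med12 is a subunit of the kinase module of Mediator, the complex that links transcription factors to RNA polymerase.

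Intensities below are the deposited background-subtracted, quantile normalized values on a linear scale, which can be negative. The spread of the negative values gave a background limit of 16.9. A gene was tested where a probe exceeded that limit on at least 3 arrays, and its brightest such probe stood for it. Differences are given as log2 fold changes of MED12 KD over NS control, fitted after values below 16 were set to 16, which understates the change of dim genes. A gene passed the test at an adjusted p of 0.05 or less. In a bulk culture, fewer cells of a type and less RNA per cell cannot be told apart.

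Med12 itself had 121.8, 121.0 and 175.9 intensity units on MED12 KD arrays 1, 2 and 3 and 165.0, 112.0 and 126.0 on their second arrays, against 355.0, 355.7 and 266.7 on the NS control arrays. No MED12 KD array overlapped the controls, and Med12 fell by 1.26 on the log2 scale (SE 0.18, adjusted p = 0.00276). A two-sided exact permutation test of the 9 arrays gave p = 0.0119, the smallest that its 84 splits allow. That test takes the arrays as exchangeable. With the arrays of a set averaged, 3 values against 3, an exact permutation test gave p = 0.1, the smallest that 20 splits allow. Between 18654 and 18690 of 45281 probes per array exceeded the background limit. Of the markers of neural stem cells, Nes was at 2095 ± 298 in MED12 KD and 2428 ± 114 in NS control (SD, n = 6 and 3) and Sox2 at 1234 ± 103 in MED12 KD and 1231 ± 69.1 in NS control, whereas Pax6, Sox1 and Msi1 were not above background on 3 arrays. Of 11 stem cell markers tested 1 fell, Hes1, a Notch-responsive repressor (log2 fold change -0.62, adjusted p = 0.0234). At an unadjusted limma p of 0.05 or less stood 4 of the 11, all lower, against 26.8% of all genes in either direction. Besides Hes1 these were Hes5 (-1.705, adjusted p = 0.0812), Vim (-0.40, adjusted p = 0.158) and Fabp7 (-0.50, adjusted p = 0.139). Of 8 astrocyte markers tested 2 rose, Aldh1l1 (1.04, adjusted p = 0.0400) and Aldoc (0.65, adjusted p = 0.0419), and 4 stood at that unadjusted p, all higher. The summed intensity of the 8 was 20580 to 31020 on MED12 KD arrays and 18090 to 20640 on NS control arrays. Most of it was Aldoc, at 14740.8 to 24741.4 in MED12 KD and 10749.7 to 14122.7 in NS control. Gja1 was lower on every MED12 KD array than on every control, but did not pass (-0.23, adjusted p = 0.214). None of the 3 oligodendrocyte, 3 pluripotent and 3 fibroblast markers tested passed in limma, nor reached an unadjusted p of 0.05, and Mbp, Mog, Mag, Mobp and Sox10 were not above background on 3 arrays. The part of these other markers in the neuronal results was not tested.

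Of the 42 members with a probe, 21 were not tested because no probe exceeded the limit on 3 arrays. Of these, 10 exceeded the limit on no array and 11 on 1 or 2 arrays, and their highest value on any of 44 probes was 44.9 (Neurod1). Tubb3, the beta-tubulin of neurons, reached at most 4.0 on any array. Rbfox3, the nuclear protein known as NeuN, reached at most 13.2. Neither marker gave a signal from either group that could be separated from background. The tested genes divided unevenly: 13 members exceeded the limit on all 9 arrays with the probe that stood for them, and 8 did so on some.

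**Figure D1:**
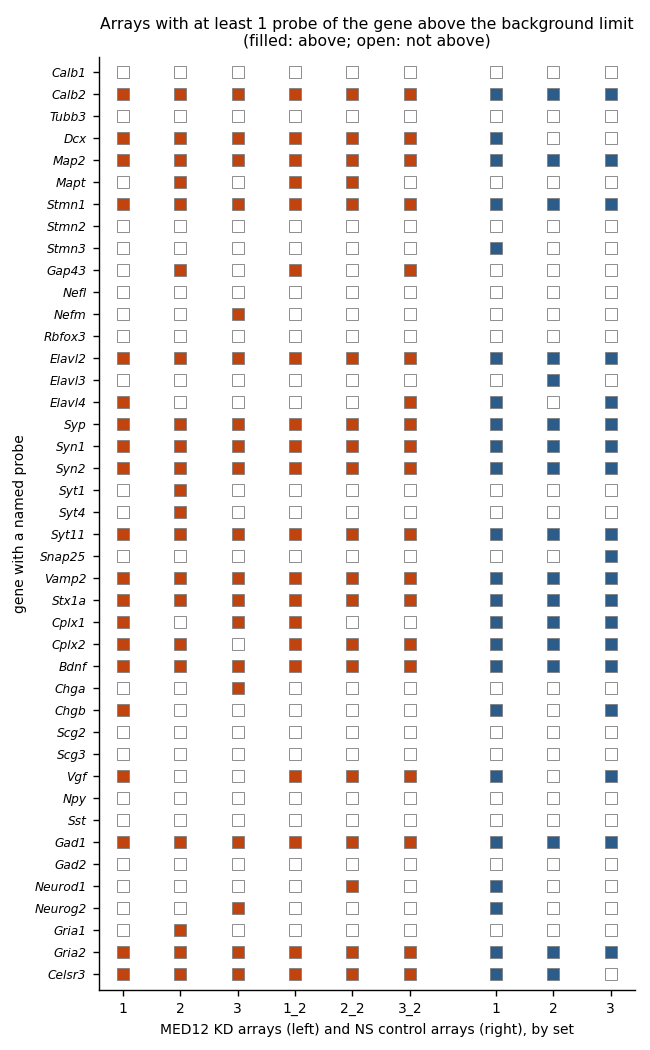
Arrays on which at least 1 probe of each of the 42 genes exceeded the background limit of 16.9, with the 6 MED12 KD arrays on the left and the 3 NS control arrays on the right (filled squares, above the limit; open squares, not above). Rows that are open throughout, such as Tubb3, Rbfox3, Scg2 and Gad2, belong to the 10 genes above the limit on no array.

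Of the 21 members tested, 1 rose (Calb2), 2 fell (Cplx1 and Bdnf) and 18 did not pass. Over all 10757 genes tested, 6.56% rose and 3.81% fell, so 1 and 2 of 21 members lie near the background. Calb2 and Cplx1 also changed 2-fold or more, against 3.02% of all genes that rose and 0.781% that fell by that rule. The MED12 KD arrays lay wholly above the controls for 3 members (Calb2, Map2 and Gad1), where 10.6% of all genes did so, and wholly below for 3 (Syt11, Cplx1 and Bdnf), where 8.39% did so. The median log2 fold change of the tested members was 0.20, with 12 above 0 and 9 below, against -0.002 over all genes. At an unadjusted p of 0.05 or less stood 7 of 21 members and 26.8% of all genes. Of the roles with over 1 gene tested, the vesicle genes (5 above 0 and 3 below) and cytoskeleton genes (3 and 1) were of mixed sign, whereas the 2 RNA-binding and the 3 peptide and granule genes were all below 0.

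**Figure D2:**
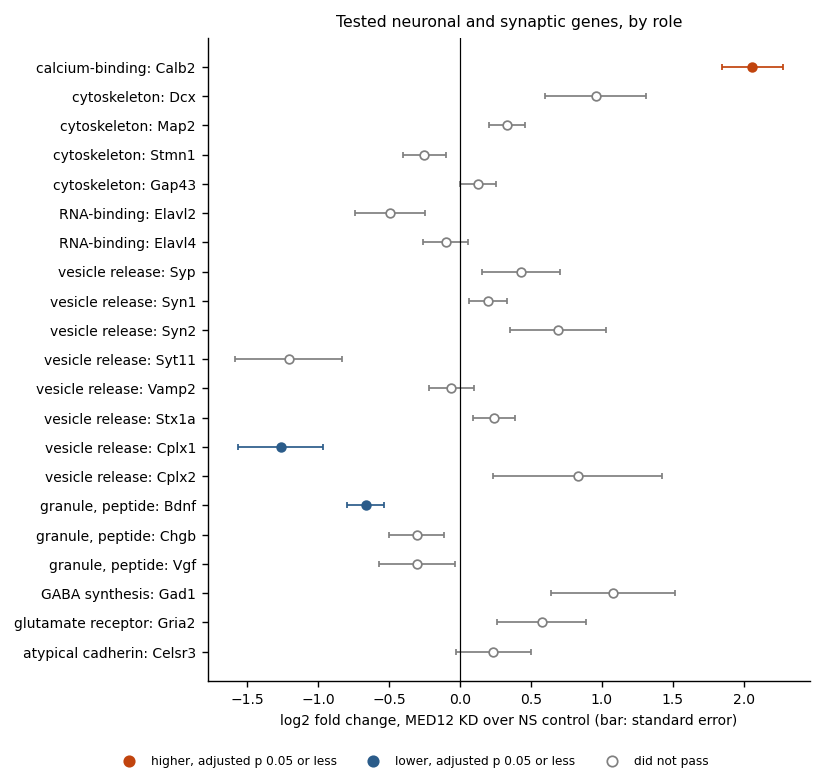
Log2 fold change of MED12 KD over NS control with its standard error for the 21 tested genes, ordered by role (filled points, adjusted p of 0.05 or less; open points, did not pass). Calb2 lies at 2.06 on the right, Cplx1 at -1.26 and Bdnf at -0.66 on the left, and Syt11 is the open point at -1.21.

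Calb2 encodes calretinin, a calcium buffer that marks interneurons and young neurons. It had 639.9, 889.1 and 705.3 intensity units on MED12 KD arrays 1, 2 and 3 and 1035.3, 789.9 and 953.5 on the second arrays, against 140.0, 247.6 and 222.9 on NS control arrays 1, 2 and 3. Every MED12 KD array was above every control, and the lowest, on array 1, was far above the highest control, on array 2. Calb2 averaged 835.5 ± 151 in MED12 KD and 203.5 ± 56.4 in NS control (SD, n = 6 and 3), a rise of 4.17-fold (log2 fold change 2.06, SE 0.21, adjusted p = 5.56e-04). Within the sets the log2 difference was 2.54, 1.76 and 1.88. A second, dimmer Calb2 probe had 103.6 to 171.5 on MED12 KD arrays and 30.2, 7.7 and 10.9 on NS control arrays, again without overlap. Its log2 fold change was 2.81 (adjusted p = 3.63e-04 over all probes). The control values of 7.7 and 10.9 were raised to the same floor before log2, which erased their spread. The adjusted p of this second probe therefore cannot be read as added evidence for the rise. The paralog Calb1, another calcium buffer of neurons, was below 0 on every array.

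**Figure D3:**
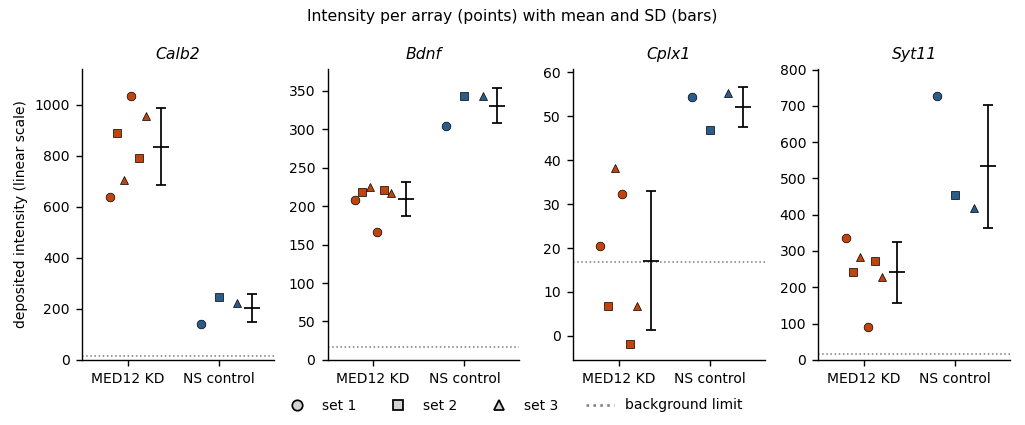
Deposited intensity per array for Calb2, Bdnf, Cplx1 and Syt11, with MED12 KD on the left and NS control on the right (circles, squares and triangles, sets 1, 2 and 3; bars, mean and SD; dotted line, background limit of 16.9). The groups do not overlap in any of the 4 panels, and 3 of the 6 Cplx1 values in MED12 KD lie under the limit.

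None of the 4 tested genes of the neuronal cytoskeleton and axon growth passed the test in limma, with 2 at an unadjusted p of 0.05 or less (Dcx and Map2). Map2, a microtubule-associated protein of dendrites, was bright, at 6308.8 to 8053.3 (median 7420) on MED12 KD arrays and 6171.6, 5927.3 and 5217.0 on NS control arrays. The groups did not overlap, but the difference was small (log2 fold change 0.33, SE 0.13, adjusted p = 0.122). The other 3 Map2 probes above background disagreed in sign, at 0.47, -0.09 and -0.21, and 5 more were not above it on 3 arrays. Stmn1, which destabilizes microtubules, had 879.3 to 1000.9 in MED12 KD and 890.3 to 1430.3 in NS control (-0.25, adjusted p = 0.316). The groups overlapped for Stmn1, whose highest value was on NS control array 1.

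Dcx, the microtubule protein of migrating neuroblasts, exceeded the limit on 6 of 6 MED12 KD arrays, at 20.3 to 72.6, and on 1 of 3 NS control arrays, at 22.8, -1.4 and -4.9. It did not pass (log2 fold change 0.96, SE 0.36, adjusted p = 0.113), and a second probe was above the limit on 5 of 6 MED12 KD and none of the NS control arrays (0.81, adjusted p = 0.136 over all probes). Because a probe could enter through the MED12 KD arrays alone, presence in the test is not evidence of a difference. Gap43, a growth cone protein, entered that way, with 3 MED12 KD arrays above the limit (highest 21.0) and no NS control array (highest 15.8). Its groups overlapped (log2 fold change 0.13, SE 0.13, adjusted p = 0.554). Values under the floor in both groups, down to 0.4 in MED12 KD, leave its ratio without a bound. Tubb3, Mapt (tau), Stmn2, Stmn3 and the neurofilament genes Nefl and Nefm were not tested.

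Among RNA-binding proteins, Elavl2, a Hu protein that stabilizes neuronal transcripts, had 52.4 to 116.5 (median 82.0) in MED12 KD and 132.6, 103.9 and 102.8 in NS control (log2 fold change -0.49, SE 0.25, adjusted p = 0.232). On 4 of the 6 MED12 KD arrays it lay below every control, and a second, dimmer probe had the opposite sign (0.45). Elavl4, another Hu protein, was above the limit on 2 arrays of each group (-0.10, adjusted p = 0.729). Elavl3 and Rbfox3, a splicing regulator, were not tested.

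Of the 8 tested genes of synaptic vesicles and their release 1 fell and 7 did not pass. The gene that fell was Cplx1, a complexin, which binds the assembled SNARE complex and times fusion. It had 20.5, 6.8 and 38.2 on MED12 KD arrays 1, 2 and 3 and 32.3, -1.8 and 6.7 on the second arrays, against 54.4, 46.8 and 55.2 on the NS control arrays. It was above the background limit on all 3 controls but on only 3 of 6 MED12 KD arrays, and no array overlapped. Cplx1 averaged 17.1 ± 15.9 in MED12 KD and 52.1 ± 4.64 in NS control (SD, n = 6 and 3; log2 fold change -1.26, SE 0.30, adjusted p = 0.0251), with -1.08, -1.55 and -1.16 within the sets. Leaving out NS control array 1, 2 or 3 ended the call (adjusted p = 0.0739, 0.0651 and 0.0908). Its single probe was dim in both groups. The MED12 KD values of 6.8, -1.8 and 6.7 were raised to the same floor before log2, which erased their spread. The SE and adjusted p of Cplx1 therefore depend on that floor. With a floor of 1, or without the filter on dim probes, Cplx1 did not pass.

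The promoter of Cplx1 and that of Gria2 below are shown as the windows of the vesicle gene that fell and of the only member window with an RE1 match. RefSeq promoter windows of 300 bases (250 before to 50 after the start, build GRCm38.p6) were found for 30 of the 43 members, 47 windows in all. An exact RE1 consensus match on either strand was in 1 of these 47 windows (2.13%) and in 21 of 32851 mouse windows (0.0639%). Sites with a mismatch or outside these windows were not searched for, so a window without a match does not show that a gene lacks RE1. The E-box of proneural factors (CANNTG, either strand, a palindrome in its fixed letters) was in 34 of 47 member windows, 72.3%, and in 72.3% of all. The Cplx1 window, chr5:108549978-108550277 on the minus strand, holds 1 E-box, in capitals.
Cplx1: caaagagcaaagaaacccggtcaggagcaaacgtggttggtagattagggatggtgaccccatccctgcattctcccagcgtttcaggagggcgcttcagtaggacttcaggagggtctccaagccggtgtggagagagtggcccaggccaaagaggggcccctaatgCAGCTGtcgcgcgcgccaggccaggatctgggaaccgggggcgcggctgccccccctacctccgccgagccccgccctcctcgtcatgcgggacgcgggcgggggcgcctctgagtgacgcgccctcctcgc
The Gria2 window, chr3:80802786-80803085 on the minus strand, holds the RE1 match in capitals, which begins 170 bases before the start.
Gria2: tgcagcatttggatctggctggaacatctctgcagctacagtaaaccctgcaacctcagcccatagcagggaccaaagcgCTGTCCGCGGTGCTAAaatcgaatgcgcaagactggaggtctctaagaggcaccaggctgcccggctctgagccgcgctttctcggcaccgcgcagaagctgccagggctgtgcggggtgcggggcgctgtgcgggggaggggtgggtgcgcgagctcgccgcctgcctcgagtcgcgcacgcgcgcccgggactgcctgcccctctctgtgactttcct
A match is a description of letters and not of binding. The Rest probe did not exceed the background limit on any array (highest 16.5), so its level was not measurable with this array.

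Syt11, a synaptotagmin of vesicle trafficking, was on the border of the test. Its brightest probe had 336.2, 241.3 and 282.3 on MED12 KD arrays 1, 2 and 3 and 89.2, 271.2 and 229.0 on the second arrays, against 728.3, 454.1 and 417.8 on the NS control arrays. All MED12 KD arrays were below all controls, with array 1_2 far below its group and NS control array 1 far above its own. The log2 fold change was -1.21 (SE 0.37, adjusted p = 0.0685), which did not pass. Without MED12 KD array 1_2 it did, at -0.94 (adjusted p = 0.0259). The second Syt11 probe had 76.3 to 159.9 in MED12 KD and 241.0, 204.4 and 194.1 in NS control, and passed over all probes tested (-0.97, SE 0.22, adjusted p = 0.0251).

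The remaining release genes showed differences within their spread. Syp (synaptophysin), an abundant protein of the vesicle membrane, had 152.9 to 281.2 in MED12 KD and 106.2 to 256.4 in NS control (log2 fold change 0.43, adjusted p = 0.346). Syn1, a synapsin that tethers vesicles to actin, had 175.1 to 245.5 and 171.6 to 193.4 in the same order (0.20, adjusted p = 0.386). A second Syn1 probe had 153.8 to 180.5 in MED12 KD and 98.1, 177.6 and 103.5 in NS control (0.48, adjusted p = 0.152 over all probes). The groups overlapped for Syp and for both Syn1 probes. Vamp2, the vesicle SNARE, was nearly level at 541.3 ± 86.0 in MED12 KD and 561.6 ± 68.5 in NS control (SD, n = 6 and 3; -0.06, adjusted p = 0.842). Stx1a, the SNARE of the plasma membrane, was at 317.0 ± 32.4 in MED12 KD and 270.2 ± 48.3 in NS control (0.24, adjusted p = 0.331). Snap25, the third SNARE protein, was not tested, nor were the calcium sensor Syt1 and its relative Syt4.

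Of the neurotrophin, peptide and granule genes, Bdnf fell and the other two tested did not pass. Bdnf encodes brain-derived neurotrophic factor, which promotes survival and plasticity of neurons through the receptor TrkB. It had 207.9, 217.9 and 225.6 on MED12 KD arrays 1, 2 and 3 and 166.8, 221.1 and 216.7 on the second arrays, against 304.2, 344.0 and 343.6 on the NS control arrays. Apart from array 1_2 the MED12 KD values were tightly grouped, and none reached the controls. Bdnf averaged 209.3 ± 21.6 in MED12 KD and 330.6 ± 22.9 in NS control (SD, n = 6 and 3), a ratio of 0.631 (log2 fold change -0.66, SE 0.13, adjusted p = 0.0118), and was lower in each set, by -0.71, -0.65 and -0.64 on the log2 scale. Of the 5 other Bdnf probes, all dim, 1 exceeded the limit on all controls, at 28.4, 33.4 and 30.8. That probe did so on 1 of 6 MED12 KD arrays, with a highest value of 17.0 (-0.93, adjusted p = 0.00171 over all probes). All its other MED12 KD values were raised to the same floor before log2, which erased their spread. The adjusted p of this dim probe therefore cannot be read as added evidence for the fall. Leaving out NS control array 2 or 3 moved the adjusted p of Bdnf to 0.0508 and 0.0518, and the fold change hardly (-0.63 and -0.64).

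Chgb, a granin of dense-core granules, was above the limit on 1 MED12 KD and 2 NS control arrays (log2 fold change -0.30, adjusted p = 0.349). Vgf, the precursor of several secreted peptides, was above it on 4 MED12 KD and 2 NS control arrays (-0.30, adjusted p = 0.502). Both are too dim here for a difference to be read. Chga, Scg2, Scg3 and the neuropeptide genes Npy and Sst were not tested, and of these only Chga exceeded the limit, on 1 array.

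Gad1, which makes GABA from glutamate, had 145.1 to 561.6 (median 193.8) in MED12 KD and 100.5, 127.1 and 135.4 in NS control. The groups did not overlap, but the MED12 KD values split by set, at 509.1 and 561.6 in set 1 and 145.1 to 195.7 in sets 2 and 3. The log2 fold change was 1.08 (SE 0.44, adjusted p = 0.142). A second Gad1 probe showed the same split, at 382.8 and 410.1 in set 1 and 133.8 to 184.1 in the others, against 74.9 to 121.0 in NS control. The dimmest Gad1 probe above background did not split by set, at 41.1 to 60.7 over the 6 MED12 KD arrays, and overlapped the controls, at 18.2 to 58.3 (0.45). Gad2, the other GABA-synthesizing enzyme, was below 0 on every array.

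Gad1 was 1 of 5 tested members, with Dcx, Syn2, Cplx2 and Gria2, whose set 1 MED12 KD arrays both lay above the other 4. These were 23.8% of the tested members, near the 18.4% of all genes that did so. For 2 members, Syp and Bdnf, both set 1 arrays lay below the other 4 (9.52%, against 17.2% of all genes). Syn2, a synapsin, had 780.9 and 562.4 in set 1, 236.6 to 381.5 on the other MED12 KD arrays, and 353.7, 254.6 and 194.9 in NS control (log2 fold change 0.69, adjusted p = 0.219). A second, dim Syn2 probe did not share the set 1 pattern, at 18.0 and 6.5 in set 1 and 16.8 to 27.2 on the other MED12 KD arrays. It was nearly level between the groups (0.07, adjusted p = 0.892 over all probes). Cplx2, the complexin that Cplx1 resembles, had 157.4 and 127.6 in set 1, 14.2 to 98.5 in sets 2 and 3, and 40.6, 49.5 and 36.4 in NS control (0.83, adjusted p = 0.402). So the complexin genes had opposite signs, and for Cplx2 the MED12 KD arrays lay both above and below the controls. Gria2, the AMPA receptor subunit that limits calcium entry, had 107.7 and 130.0 in set 1, 49.3 to 75.4 in sets 2 and 3, and 40.4 to 57.1 in NS control (0.58, adjusted p = 0.270). With both set 1 MED12 KD arrays left out, Calb2 was at 2.07 and Syt11 passed at -1.02 (adjusted p = 0.0249). Leaving out MED12 KD array 3 alone, where Cplx2 was under the background limit, raised Cplx2 to 1.27 (adjusted p = 0.0213).

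**Figure D4:**
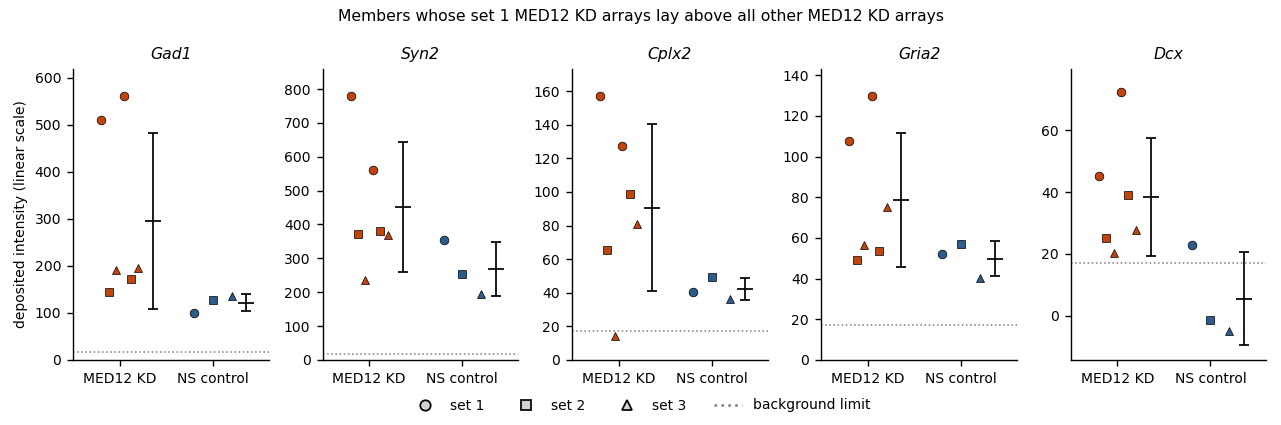
Deposited intensity per array for the 5 members whose set 1 MED12 KD arrays (circles) both exceeded the 4 other MED12 KD arrays, with MED12 KD on the left and NS control on the right (bars, mean and SD; dotted line, background limit of 16.9). For Gad1 the set 1 arrays stand at 509.1 and 561.6 and all others at or below 195.7.

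Some markers of other cell types followed the same pattern. Both set 1 MED12 KD arrays lay above the other 4 for 4 of the 8 astrocyte markers tested: Gfap (32.1 and 37.0, against at most 31.0), Aqp4 (62.4 and 82.7, against at most 26.9), S100b (416.2 and 603.2, against at most 315.3) and Aldoc (21235 and 24741, against at most 18795). They did so for 2 of the 3 fibroblast markers tested and not for Col1a2, at 4.8 and -5.1 in set 1 and 2.8 to 21.1 on the other 4, and for 2 of 11 stem cell, 1 of 3 oligodendrocyte and 1 of 3 pluripotent markers. They lay below the other 4 for 1 astrocyte marker, Gja1 (5118.2 and 4933.2, against at least 5140.9), and for 2 of 11 stem cell markers. Over all genes tested, 18.4% lay above in this way and 17.2% below. Dcn, a matrix proteoglycan, had 137.8 and 353.0 on the set 1 MED12 KD arrays, 13.5 to 42.6 on the other 4, and values below 0 on the NS control arrays, and Acta2 (smooth muscle actin) had 1062.4 and 1331.3 in set 1, 213.0 to 285.6 on the other 4, and 123.5 to 435.6 in NS control. The summed intensity of the 3 fibroblast markers tested was 237 to 1684 on MED12 KD arrays and 147.9 to 449.5 on NS control arrays, while Col1a1, Col3a1, Lum and Pdgfrb did not exceed the limit on 3 arrays. Their part in the set 1 values was not tested. The other members of the receptor, proneural and cadherin groups were dim: Gria1, Neurod1 and Neurog2 were not tested, and Celsr3, an atypical cadherin of axon guidance, had 12.0 to 35.7 in MED12 KD and 6.8 to 23.4 in NS control (log2 fold change 0.23, adjusted p = 0.609).

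Of 187 further genes of the same functions 99 were tested, of which 10 rose (10.1%, against 6.56% of all genes), 4 fell (4.04%, against 3.81%) and 85 did not pass, with a median log2 fold change of 0.03. Slc17a8, a vesicular glutamate transporter, differed most. It had 247.7, 121.4 and 117.5 on MED12 KD arrays 1, 2 and 3 and 255.7, 139.7 and 110.3 on the second arrays, against 27.9, 3.4 and 8.7 on the NS control arrays. Only 1 control exceeded the background limit (log2 fold change 3.01, SE 0.32, adjusted p = 6.36e-04). The controls at 3.4 and 8.7 were raised to the floor before log2, so the size of this rise depends on the floor. Over the 23 alternative settings given at the end, the log2 fold change of Slc17a8 was 1.73 to 4.05. Subunits of 3 channels also rose: Htr3a, of the serotonin-gated channel (120.0 ± 15.0 in MED12 KD and 48.8 ± 12.4 in NS control), Gabrg1, of the GABA-A receptor (60.3 ± 13.2 and 24.6 ± 5.85), and Grin3a, of the NMDA receptor (969.4 ± 168 and 585.9 ± 53.8; SD, n = 6 and 3). Their log2 fold changes were 1.32, 1.29 and 0.71 (adjusted p = 0.00205, 0.00605 and 0.0252). They were 3 of the 4 genes that rose among 25 tested postsynaptic genes, where 21, other receptor subunits included, did not pass, and the fourth was Dlgap1, a scaffold protein whose groups overlapped (1.71, adjusted p = 0.0436).

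Vesicle and transport genes gave further rises. Cadps2, which primes dense-core vesicles, had 570.1 to 947.8 in MED12 KD and 249.1 to 369.8 in NS control (log2 fold change 1.24, adjusted p = 0.00351; 0.46, adjusted p = 0.156, with the mean of its probes above background), and with Slc17a8 it made 2 that rose and none that fell among 20 tested. Kif1a, the motor that carries vesicle precursors along axons, had 3367.6 to 7020.1 in MED12 KD and 1947.3 to 2314.3 in NS control (1.16, adjusted p = 0.0157). Map1b, a microtubule protein of growing axons, rose by 0.59 (adjusted p = 0.0331). Celsr2, a relative of Celsr3, rose by 1.11 (adjusted p = 0.0221), and Cpe, which trims peptide precursors, by 0.99 (adjusted p = 0.0446), though its groups overlapped. By list, 2 rose and 1 fell of 15 tested cytoskeleton genes, 1 rose and 1 fell of 8 peptide and granule genes, 1 rose and 1 fell of 11 cadherin and calcium-binding genes, and 1 fell of 20 neuronal transcription and RNA regulators.

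The 4 that fell included the receptor for the neurotrophin named above. Ntrk2 (TrkB) had 272.8, 361.8 and 429.6 on MED12 KD arrays 1, 2 and 3 and 169.1, 387.9 and 301.7 on the second arrays, against 759.3, 637.3 and 726.4 on the NS control arrays (log2 fold change -1.20, SE 0.26, adjusted p = 0.0184). Calm2, 1 of the genes for calmodulin, averaged 1979 ± 264 in MED12 KD and 5310 ± 654 in NS control (SD, n = 6 and 3; -1.43, SE 0.15, adjusted p = 6.10e-04). Dclk1, a doublecortin-like kinase, and Insm1, a zinc finger factor of neuroendocrine and neuronal progenitors, fell by 0.69 (adjusted p = 0.0137) and 0.95 (adjusted p = 0.0209). With the mean of its probes Dclk1 was at -0.27 (adjusted p = 0.361). Bdnf and its receptor were both lower on all 6 MED12 KD arrays than on all 3 controls, as 8.39% of all genes were. Both calls ended when certain single controls were left out. A link between the 2 falls was not tested.

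Of these 14 genes, 5 passed without each array in turn: Slc17a8, Calm2, Htr3a, Cadps2 and Gabrg1. Leaving out NS control array 2 ended the call for Dclk1 (adjusted p = 0.0609), and leaving out array 2 or 3 ended it for Kif1a (0.0629 and 0.0546) and Insm1 (0.0713 and 0.0951). Celsr2 was lost without NS control array 1 or 3 (adjusted p = 0.0792 and 0.0969), and Grin3a (0.0873, 0.0635 and 0.0731) and Ntrk2 (0.0627, 0.0510 and 0.0709) without array 1, 2 or 3. Map1b was lost without MED12 KD array 2 or 2_2 or any control, Cpe without any array but MED12 KD 2 and NS control 1, and Dlgap1 without any array but MED12 KD 3 (adjusted p up to 0.107, 0.166 and 0.138).

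**Figure D5:**
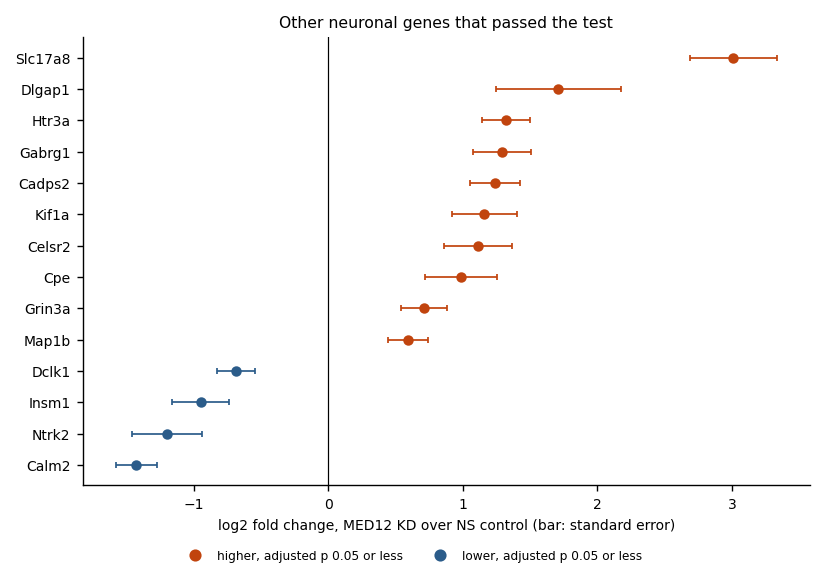
Log2 fold change of MED12 KD over NS control with its standard error for the 14 other neuronal genes that passed, from the largest rise at the top to the largest fall at the bottom. Slc17a8 lies at 3.01 and Calm2 at -1.43.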

How the data were processed

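RNA of mNS-5 cells was hybridized by the authors to 9 Illumina mouse arrays (6 MED12 KD, 3 NS control). Per the study's methods and the submitters' processing notes, signals were background subtracted and quantile normalized in GenomeStudio (version not given in the sources used here) and deposited as intensity values on a linear scale, from -35.6 to 53518.1. A second table of unnormalized values, with 18 columns (9 of them signal), was not used because its column names match no sample. The processing makes the distribution of every array alike, so a shift of all genes together would not be seen. Depth has no meaning for arrays, and the number of arrays limits the precision.

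Values below 16 were set to 16 before log2. Negative intensities were mirrored to estimate a background SD of 10.3, and the limit of 16.9 is its one-sided p of 0.05 (24.0 at 0.01). Probes were named from the platform annotation: 34885 of 45281 had 1 gene symbol, 18 had several and 10378 are unnamed here. Named probes that exceeded it on 3 or more arrays entered the fit (16992 probes, 10757 genes), and the brightest stood for its gene. A linear model over all genes was fitted in limma 3.58.1 (lmFit, eBayes; R 4.3.3), two-sided and without covariates, and p-values were adjusted by Benjamini-Hochberg. Where a second probe is given, the fit covered all probes. The study's thresholds were an adjusted p of 0.05 and a 2-fold change, and its methods do not name the array test.

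All 43 members are accounted for, those that pass with every array. Other neuronal genes are named where they pass, up to 4 in each direction of each list. The members and lists were chosen with earlier results of these data known. The alternatives concerned the transformation, the filter, the choice of probe, the sets, the second MED12 KD arrays, the variance model and each array. Python 3.11.15 and matplotlib 3.10.9 were used for figures. Promoter windows came from RefSeq (GRCm38.p6).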

Additional observations from a re-analysis of the deposited data

Results flagged for a closer look

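In each group of 6 MED12 KD arrays, Med12, the 21 tested members and the 14 other neuronal genes that passed were screened for an array far from the other 5. Of 36 groups 3 held one, and chance gives about 1 in 20. Bdnf was lowest on MED12 KD array 1_2, at 166.8, where the next value was 207.9. Cadps2 was highest on the same array, at 947.8, against a next value of 710.5. Insm1 was highest on MED12 KD array 2, at 79.0, with 55.9 as the next value.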

How the results depend on the processing

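Calb2 kept its call under all 23 alternatives (log2 fold change 1.81 to 2.44, adjusted p up to 0.0195), as did Slc17a8, Calm2 and Htr3a. Bdnf passed under 19 of 23 (adjusted p up to 0.0790) and Cplx1 under 17 (up to 0.202), while Syt11, which had not passed, did so under 7 (down to 0.0212). The number of members that rose was 1; it was 2 with 50 added before log2, with only the first or only the second MED12 KD array of each set, and with eBayes trend and robust, and 1 to 2 with each array left out. The number that fell was 2; it was 1 with a floor of 1 before log2, without the filter on dim probes, and with only the second MED12 KD arrays, 0 with only the first, and 0 to 3 with each array left out. It was 3, with Syt11, under 6 settings: 50 added before log2, the mean of probes, averaged arrays, trend and robust, array weights, and both set 1 MED12 KD arrays left out. Those changed 2-fold or more numbered 2, against 1 with a floor of 1 or no filter, up to 3 under the other settings, and 1 to 3 with each array left out. Other neuronal genes that rose numbered 10, against 4 without the filter, 6 with the MED12 KD arrays of a set averaged and 3 with only the first ones. The count was 6 without both set 1 MED12 KD arrays (chosen after seeing the data), and 4 to 10 with each array left out. It was 12 with 50 added before log2 and with the set as a replicate or random block. Other neuronal genes that fell numbered 4, against 1 with only the first MED12 KD arrays and 1 to 5 with each array left out. With the set as a replicate or random block 5 of them fell. With the set number as a replicate block 3 members rose (Calb2, Dcx at adjusted p = 0.0292 and Syn2 at adjusted p = 0.0339) and 2 fell. Over all genes 1137 rose and 751 fell with that block, against 706 and 410 in the main fit. With the set as a random block the adjusted p was 0.0505 for Dcx and 0.104 for Syn2, and with averaged arrays 0.142 and 0.272. The main fit did not use the set numbers to pair the arrays. Same-set deviations of MED12 KD and NS control correlated at 0.03 to 0.30, all above 0 and 2 of 6 under 0.1. Of the 6 MED12 KD arrays, 5 correlated best with their own control. The main fit thus ignores any pairing by set, and its counts depend on that choice. Over all genes, 437 rose and 276 fell without the filter (19057 genes tested), 344 and 164 with averaged arrays, 197 and 62 with only the first and 313 and 136 with only the second MED12 KD arrays. Signs turned for dim or level members only: Vgf was 0.26 with a floor of 1 and -0.58 to 0.085 with each array left out, Elavl4 was -0.21 to 0.037 and Vamp2 -0.13 to 0.03. The cause of these changes was not tested, except that fewer arrays or more genes tested enter by construction. Signal over background limits Cplx1, Dcx, Gap43, Elavl4, Chgb, Vgf and Celsr3 most.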
